A study of Mus musculus with 6 samples.

Results

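The bone morphogenetic protein (BMP) genes and their Id targets were examined for acetylation of histone H3 (H3ac) in mouse mesenchymal stem cells (MSCs). The 10 genes were the ligands Bmp2 and Bmp4, the receptors Bmpr1a and Bmpr2, the signal carriers Smad1 and Smad5, the inhibitor Smad6 and the targets Id1, Id2 and Id3. A region belonged to a gene when it overlapped the gene body extended by 5 kb on each side, with gene models from GENCODE release M21 (mm10/GRCm38). By this rule 16 of the 24431 regions in the table were members. Of these, 11 were promoter regions, which overlapped the 1 kb on either side of a start of the gene or of any of its protein-coding transcripts, and 5 were other regions. Over the whole table the same split gave 11210 promoter regions and 13221 other regions.

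H3ac was profiled by CUT&RUN, in which an antibody holds a nuclease at the marked chromatin and the released DNA is sequenced. There were 3 groups of 2 libraries. The Young group came from mice of 3 to 5 months and the Old group from mice of 18 to 22 months, neither of them treated. The OldAcetate group came from mice of 18 to 22 months, and its cells were kept for 3 days with 5 mM sodium acetate. All cells were cultured at 2% oxygen with 10% FBS and 1% penicillin/streptomycin. The strain and sex of the mice, their number, and whether Old and OldAcetate cells came from the same animals are not given in the sources used here, so the p-values measure only the spread between these libraries, which may be technical. The study set out to describe how metabolism, chromatin and stemness of these cells differ with age, and the acetate arm asks whether H3ac of old cells differs once acetate is supplied.

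Values are RPM, the reads of a region per 1000000 reads of the library. Library totals ranged from 2163351 to 3039481 reads. The share of a library that fell in the 24431 regions was 64.8% and 57.8% (Young), 49.9% and 45.9% (Old) and 57.3% and 56.3% (OldAcetate). It was thus lower in both Old libraries than in the other four, and an RPM value moves with it. Changes are therefore given after each library was shifted by its median deviation over all regions (called scaled here), with the change in RPM as deposited beside them where the call differs. This shift removes any change shared by most regions, so scaled values cannot show a gain or loss across the whole table. Whether such a change took place was not tested. Of 8 surface or secreted markers of MSCs, 8 had a region over the gene start, against 0 of 4 endothelial markers, and the leukocyte marker Ptprc had none.

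BMPs are secreted dimers of the TGF-β family that bind a complex of type I and type II receptor kinases. The type I receptor phosphorylates Smad1 and Smad5, which join Smad4, enter the nucleus and bind DNA, and the Id genes are among their best known direct targets. Id proteins lack a DNA-binding domain and hold basic helix-loop-helix factors away from DNA, while Smad6 is an inhibitory Smad that feeds back on the receptors. In bone, BMPs are known for driving stromal progenitors towards the osteoblast fate.

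The DNA at the gene starts was read from RefSeq windows of 300 bases, 250 before and 50 after an annotated start (GRCm38.p6). Windows were found for 8 of the 10 genes, all but Bmp2 and Id1. All 10 windows, 3 of them of Smad5, lay inside an H3ac region. They were searched on both strands for GGCGCC, a palindrome that BMP-activated Smads are known to bind, and for CAGAC, the Smad box. A match of either can share at most 1 base with a match of the other. The stretches that follow show the matches and, for Smad6 and the first start of Smad5, the 250 bases upstream. Capitals mark a match to either motif, and every stretch is written 5′ to 3′ in the direction of the gene. The Bmpr2 and Id3 stretches, and the second of Smad5, lie in GENCODE exons and show 10 bases on each side of the match, and the Id2 stretch lies in an intron of its longer transcript. The third Smad5 stretch is the part of a window at a later start that lies outside exons. In the labels, upstream, before and nearer refer to the RefSeq start of the window. The Bmpr1a, Bmpr2, Id2 and Id3 stretches lie inside the gene, after the GENCODE gene start from which regions are measured. That of Bmpr1a lies outside exons.
Smad5, upstream (chr13:56702760-56703009, plus strand): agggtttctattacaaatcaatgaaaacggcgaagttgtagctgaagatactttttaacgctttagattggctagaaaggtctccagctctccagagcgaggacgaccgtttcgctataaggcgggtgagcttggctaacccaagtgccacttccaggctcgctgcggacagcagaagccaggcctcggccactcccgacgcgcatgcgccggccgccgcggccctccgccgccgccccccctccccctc
Smad5, just after the first start (chr13:56703023-56703048, plus strand): ccggcgagcgGGCGCCgagcgcttgt
Smad5, at a later start (chr13:56703577-56703667, plus strand): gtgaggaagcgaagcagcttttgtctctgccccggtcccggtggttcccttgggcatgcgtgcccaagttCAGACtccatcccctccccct
Smad6, upstream (chr9:64022060-64022309, minus strand): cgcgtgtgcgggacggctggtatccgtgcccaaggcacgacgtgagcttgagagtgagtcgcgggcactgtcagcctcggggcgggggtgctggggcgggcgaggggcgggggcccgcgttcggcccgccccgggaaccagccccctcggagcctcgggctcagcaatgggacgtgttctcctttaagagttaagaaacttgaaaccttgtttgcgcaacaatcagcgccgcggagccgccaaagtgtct
Bmpr1a, upstream (chr14:34502688-34502796, minus strand): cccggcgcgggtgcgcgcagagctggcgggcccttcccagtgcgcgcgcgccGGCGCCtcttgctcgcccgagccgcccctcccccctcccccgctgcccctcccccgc
Bmpr2, in an exon (chr1:59764164-59764189, plus strand): ccggcggccgGGCGCCgctgcctgcc
Id2, before the start (chr12:25096254-25096342, minus strand): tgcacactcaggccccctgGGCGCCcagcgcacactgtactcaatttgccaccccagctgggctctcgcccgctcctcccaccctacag
Id3, upstream match (chr4:136143645-136143669, plus strand): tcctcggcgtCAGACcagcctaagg
Id3, match nearer the start (chr4:136143744-136143768, plus strand): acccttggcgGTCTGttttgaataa
The palindrome was found in 5 of the 10 windows, at 4 genes (Bmpr1a, Bmpr2, Smad5 and Id2). Overlapping windows of Smad5 hold the same match. Of the 21263 windows of protein-coding genes 15.3% held the palindrome, as did 22.2% of the 11802 such windows inside an H3ac region. The Smad box was found in 2 of the 10 windows, at Smad5 and Id3, compared with 48.4% of all windows and 47.0% of those inside a region. Id3 held 2 matches in its single window, 1 on each strand. The windows of Smad6, Smad1 and Bmp4 held neither motif. CpG dinucleotides numbered 12 to 48 per window, and the median over all protein-coding genes was 13. A match describes letters only, and binding was not measured.

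The regions differed in how they sat on the genes. The 3 Id genes are short, from 1.16 kb for Id1 to 3.34 kb for Id2, and each lay whole inside a single region of 20 to 20.5 kb. Those regions reached mostly upstream. The Id1 region (chr2:152723001-152743000) began 13250 bp before the start, the Id2 region (chr12:25091501-25112000) reached 14860 bp upstream and the Id3 region (chr4:136131501-136151500) began 11996 bp before it. Regions of 20 kb or more made up 9.4% of all promoter regions, whose median length was 5500 bp. Bmpr2, of 115.6 kb, had only a 7 kb region at its start (chr1:59761001-59768000), which covered 3.98% of the gene body. Smad6 was at the other end. Regions covered 89.2% of its 68.98 kb, mostly through a 53.5 kb region inside the gene (chr9:63955001-64008500) that was longer than 99.8% of the other, non-promoter regions of the table. Bmpr1a and Smad1 also had 3 regions each, covering 57.6% and 42.6% of their bodies. No region overlapped another protein-coding gene.

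**Figure D1:**
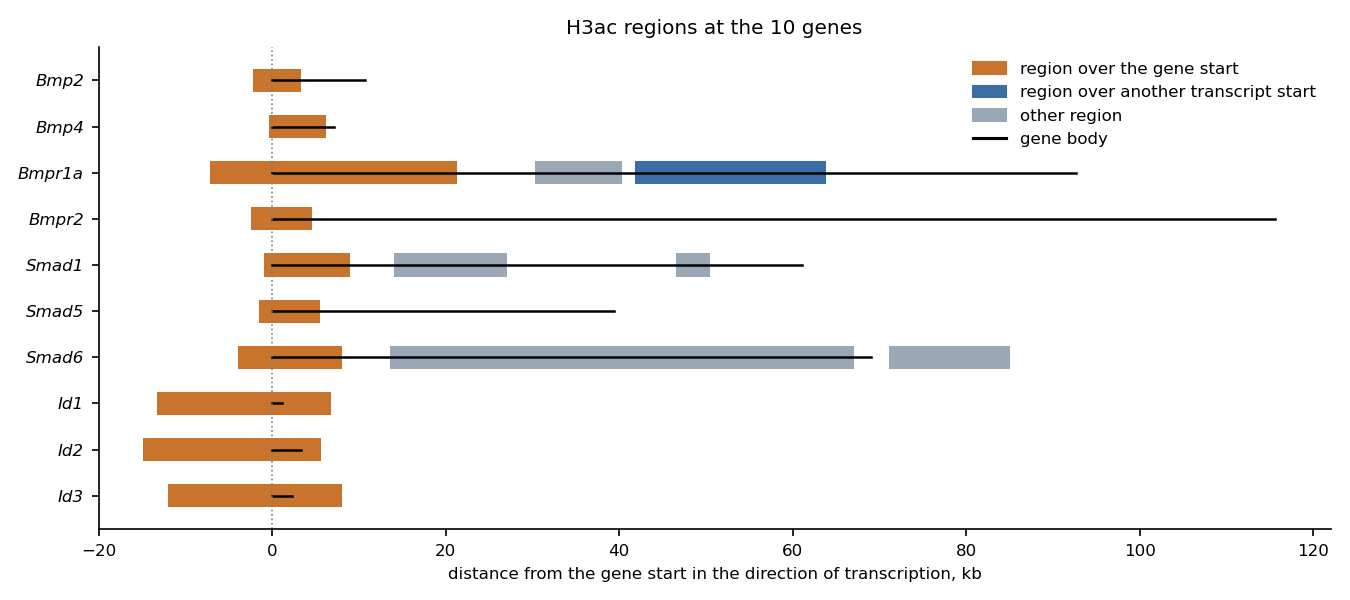
Position of the 16 H3ac regions (bars) at the 10 genes, in kb from the gene start (dotted line) in the direction of transcription, with gene bodies as black lines. The Id regions extend 11996 to 14860 bp upstream of short genes, while Smad6 is covered almost along its whole length.

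Per length, the 10 regions over gene starts were close to other promoters. Bmp2 stood highest with 3.80 ± 0.59 RPM per kb (SD over the 6 libraries), followed by Id2 with 3.54 ± 0.32, Bmpr2 with 3.40 ± 0.33, Smad5 with 3.24 ± 0.65, Id1 with 3.19 ± 0.34 and Bmpr1a with 3.02 ± 0.28. Smad1 and Id3 (both 2.94, SD 0.42 and 0.54), Smad6 (2.86 ± 0.55) and Bmp4 (2.85 ± 0.38) came last. No step between neighbours in this order exceeded their SDs. These SDs pool the 3 groups and are not the error of a difference between regions, which was not tested. The median over all 11210 promoter regions was 3.04 RPM per kb, and Bmp2 lay above 82.9% and Bmp4 above 39.3% of them. The Id1, Id2 and Id3 regions were longer than 90.6%, 91.1% and 90.6% of promoter regions, and the Bmpr1a start region was longer than 95.6%. Promoter regions of 20 kb or more had a median of 2.77 RPM per kb, and Id1, Id2, Id3 and Bmpr1a all lay above it.

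Of the 16 regions, none passed the test in any of the 3 comparisons once libraries were scaled (limma, Benjamini-Hochberg over 24431 regions, threshold 0.05). Calls were rare in the whole table too, at 0.00819% of regions for Old against Young, 0% for OldAcetate against Old and 0% for OldAcetate against Young. At an unadjusted p under 0.05, 2 of the 16 passed in Old against Young, where 5.54% of all regions did. The same count was reached in OldAcetate against Old (all regions 6.24%), and 1 passed in OldAcetate against Young (5.08%). edgeR on the whole reads behind the RPM values called 0 of the 16 in each comparison, and 5, 0 and 0 of all 24431 regions. At an unadjusted edgeR p under 0.05 stood 2, 1 and 1 of the 16, where 5.19%, 5.34% and 6.76% of all regions did. The adjusted limma p of the member regions were 0.77 or higher. The account of each gene that follows is thus of values and their intervals.

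Among the ligands, Bmp2, whose product is a strong inducer of bone formation, had 1 region of 5.5 kb over its start (chr2:133550001-133555500). Its RPM was 23.4 and 22.1 (Young), 16.2 and 17.9 (Old) and 21.2 and 24.6 (OldAcetate). Both Old libraries lay below the other four, and OldAcetate overlapped Young. The scaled log2 change was -0.055 ± 0.20 (SE) in Old against Young and 0.17 ± 0.20 in OldAcetate against Old, both inside their error.

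A difference from Bmp2 was not tested for Bmp4, which encodes a closely related ligand. Its 6.5 kb region (chr14:46384501-46391000) had 22.0 and 14.7 RPM (Young), 19.4 and 17.1 (Old) and 18.8 and 19.2 (OldAcetate). The 2 Young libraries bracketed all the others, so no pair of groups was separate. The scaled change in Old against Young was 0.37 ± 0.21 with an unadjusted p of 0.091, and it ran from 0.16 to 0.57 as each library was left out.

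For the receptors, Bmpr1a encodes a type I receptor and Bmpr2 the type II receptor that activates it. The 28.5 kb region over the Bmpr1a start (chr14:34482001-34510500) carried 98.0 and 82.9 RPM (Young), 77.2 and 81.9 (Old) and 93.4 and 82.2 (OldAcetate). Old was lowest, but the second Young and the second OldAcetate library came within 1.0 RPM of the second Old library. Further into the gene, a 22 kb region within 1 kb of the start of a shorter transcript (chr14:34439501-34461500) had 49.7 and 41.7 RPM (Young), 39.8 and 38.6 (Old) and 44.4 and 35.9 (OldAcetate). A 10 kb intronic region between them (chr14:34463001-34473000) had 21.7 and 20.4 RPM (Young), 15.3 and 17.1 (Old) and 16.1 and 17.9 (OldAcetate). In that region OldAcetate stayed below Young. Summed over its 3 regions, Bmpr1a had a scaled change of -0.17 ± 0.085 in OldAcetate against Old, with an unadjusted p of 0.048 and an adjusted p of 0.84. As deposited, the sign of that change was positive (0.10 ± 0.13).

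Bmpr2 had 26.0 and 26.1 RPM (Young), 24.5 and 19.9 (Old) and 23.5 and 22.9 (OldAcetate). Both OldAcetate libraries lay between the 2 Old libraries and below Young. Its scaled changes were 0.12 ± 0.19 in Old against Young and -0.17 ± 0.19 in OldAcetate against Old.

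Smad1 and Smad5 are the receptor-regulated Smads that carry the BMP signal. The 10 kb region over the Smad1 start (chr8:79390501-79400500) had 33.2 and 31.5 RPM (Young), 22.2 and 26.6 (Old) and 31.9 and 30.9 (OldAcetate), so the Old libraries were below all others. A 13 kb intronic region (chr8:79372501-79385500) differed from it. There the values were 21.7 and 21.2 RPM (Young), 18.0 and 28.6 (Old) and 28.2 and 27.5 (OldAcetate). OldAcetate exceeded Young in both libraries, with a scaled change of 0.48 ± 0.20 (unadjusted p = 0.021, adjusted p = 0.96). The Old libraries were the lowest and the highest of the 6, and the scaled change of Old against Young, 0.43 ± 0.20 (unadjusted p = 0.037), came to 0.043 with Old replicate 2 left out and to 0.82 with Old replicate 1 left out. The third Smad1 region, 4 kb long (chr8:79349001-79353000), held only 17 to 28 reads per library. Its values were 6.76 to 12.5 RPM, and every pair of groups overlapped.

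Smad5 had a single 7 kb region over its start (chr13:56701501-56708500), which holds the sequence printed above. Its RPM was 25.3 and 22.9 (Young), 17.6 and 16.7 (Old) and 26.9 and 26.7 (OldAcetate). The Old libraries were apart from the rest, and OldAcetate was above Young. OldAcetate reached 156% of the Old mean, the largest ratio among the 16 regions. The scaled change was 0.39 ± 0.19 (95% interval 0.0048 to 0.78, unadjusted p = 0.047, adjusted p = 0.80), from 0.37 to 0.42 as each library was left out. Old against Young gave -0.13 ± 0.19.

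Smad6, which blocks type I receptors and is itself a BMP target, had the region with most reads. Inside the gene, the 53.5 kb region carried 180.0 and 161.3 RPM (Young), 121.1 and 110.6 (Old) and 147.2 and 140.6 (OldAcetate). All 3 groups were separate, with OldAcetate between Young and Old, at 84.3% of the Young mean and 124% of the Old mean. The scaled change of Old against Young was -0.21 ± 0.084 (95% interval -0.37 to -0.039). This was the lowest p of any member region in that comparison (unadjusted p = 0.017, adjusted p = 0.86). It was -0.21 to -0.20 whichever library was left out. As deposited, the region fell by 0.56 ± 0.12 (adjusted p = 0.0070).

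In the 12 kb region over the Smad6 start (chr9:64014001-64026000) Old lay below Young, but OldAcetate overlapped both. It had 36.8 and 37.6 RPM (Young), 31.9 and 26.6 (Old) and 44.4 and 28.4 (OldAcetate). The 2 OldAcetate libraries lay further apart than any group means did. Past the end of the gene, a 14 kb region (chr9:63937001-63951000) began 2076 bp away and entered through the extension alone. It had 38.8 and 33.1 RPM (Young), 25.9 and 24.3 (Old) and 33.6 and 30.4 (OldAcetate). The group means came in the same order as inside the gene, although OldAcetate overlapped Young. The nearest region outside the rule at this gene lay 19576 bp away, with 33.4 to 54.9 RPM.

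The Id genes encode the inhibitors of differentiation that BMPs switch on. Id3 had 68.8 and 62.5 RPM (Young), 43.9 and 46.1 (Old) and 65.9 and 65.1 (OldAcetate). Both Old libraries were far below the others, and OldAcetate fell within the Young range. Old was at 68.6% of the Young mean, OldAcetate at 145% of the Old mean and at 99.7% of the Young mean. After scaling, the change was -0.19 ± 0.13 in Old against Young (unadjusted p = 0.14) and 0.30 ± 0.13 in OldAcetate against Old (95% interval 0.044 to 0.55, unadjusted p = 0.022, adjusted p = 0.77). The latter was the lowest p among the member regions in the acetate comparison and ran from 0.20 to 0.39 as each library was left out. As deposited, Id3 fell in Old against Young by 0.54 ± 0.16 (adjusted p = 0.024). The as-deposited change in OldAcetate against Old was 0.54 ± 0.16 and missed the threshold as a region (adjusted p = 0.084).

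Id1 had 67.8 and 66.6 RPM (Young), 62.9 and 50.5 (Old) and 69.2 and 65.5 (OldAcetate). Id2 had 82.3 and 72.3 (Young), 64.3 and 68.0 (Old) and 78.3 and 70.9 (OldAcetate). For both genes the Old libraries were the 2 lowest and OldAcetate overlapped Young. The Old mean was 84.4% of Young for Id1 and 85.6% for Id2. After scaling the signs turned, to 0.099 ± 0.12 for Id1 and 0.13 ± 0.11 for Id2 in Old against Young. The difference between Id3 and its 2 relatives was not itself tested. All 3 regions had similar depth (95 to 250 reads per library), so counting error alone was 8.48% to 10.3% of the value at the lowest library.

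**Figure D2:**
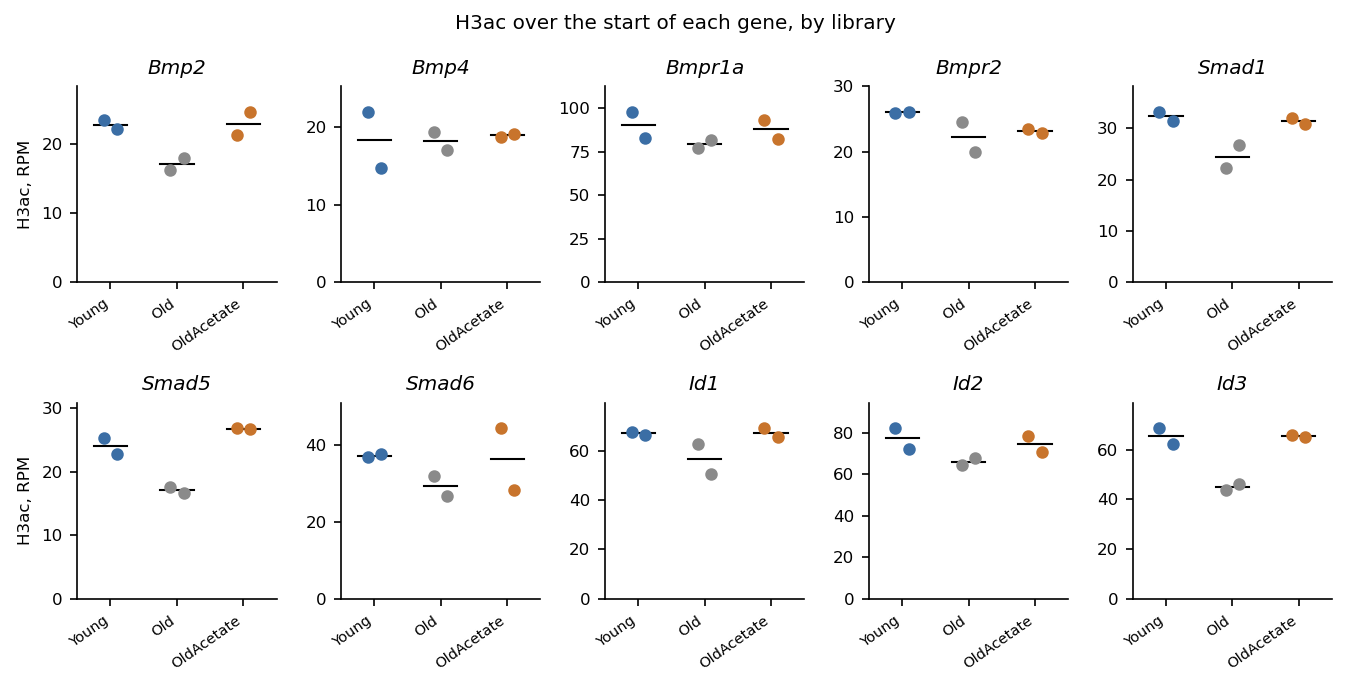
H3ac in RPM (vertical axes from 0) over the start of each of the 10 genes, with 1 point per library and a black line at the group mean of 2 libraries. In Id3 and Smad5 the Old libraries sit at 43.9 to 46.1 and 16.7 to 17.6 RPM, below all other libraries. The Old libraries are also the lowest at Bmp2, Bmpr1a, Smad1, Id1 and Id2, while in Bmp4 the groups overlap. The RPM shown are not scaled.

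Set side by side, the 16 regions were read against the rest of the table. Old lay wholly below Young in 13 of the 16 regions, compared with 60.2% of all regions. OldAcetate lay wholly above Old in 9 of 16, compared with 47.1%, and both counts use the same 2 Old libraries. OldAcetate lay wholly below Young in 3 regions (29.8% of all) and wholly above in 2 (7.6%). The median log2 change of the members as deposited was -0.30 in Old against Young and 0.27 in OldAcetate against Old, next to medians of -0.35 and 0.24 over all regions. After scaling, the member medians were 0.051, 0.028 and 0.066 in the 3 comparisons, each under the 0.099 that replicate libraries differed by (pooled SD). As each library was left out, the first ran from -0.045 to 0.096 and the second from -0.045 to 0.049, crossing 0. The 11 promoter regions alone had scaled medians of 0.099, 0.016 and 0.070, and all promoter regions had -0.0067, 0.049 and 0.046.

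**Figure D3:**
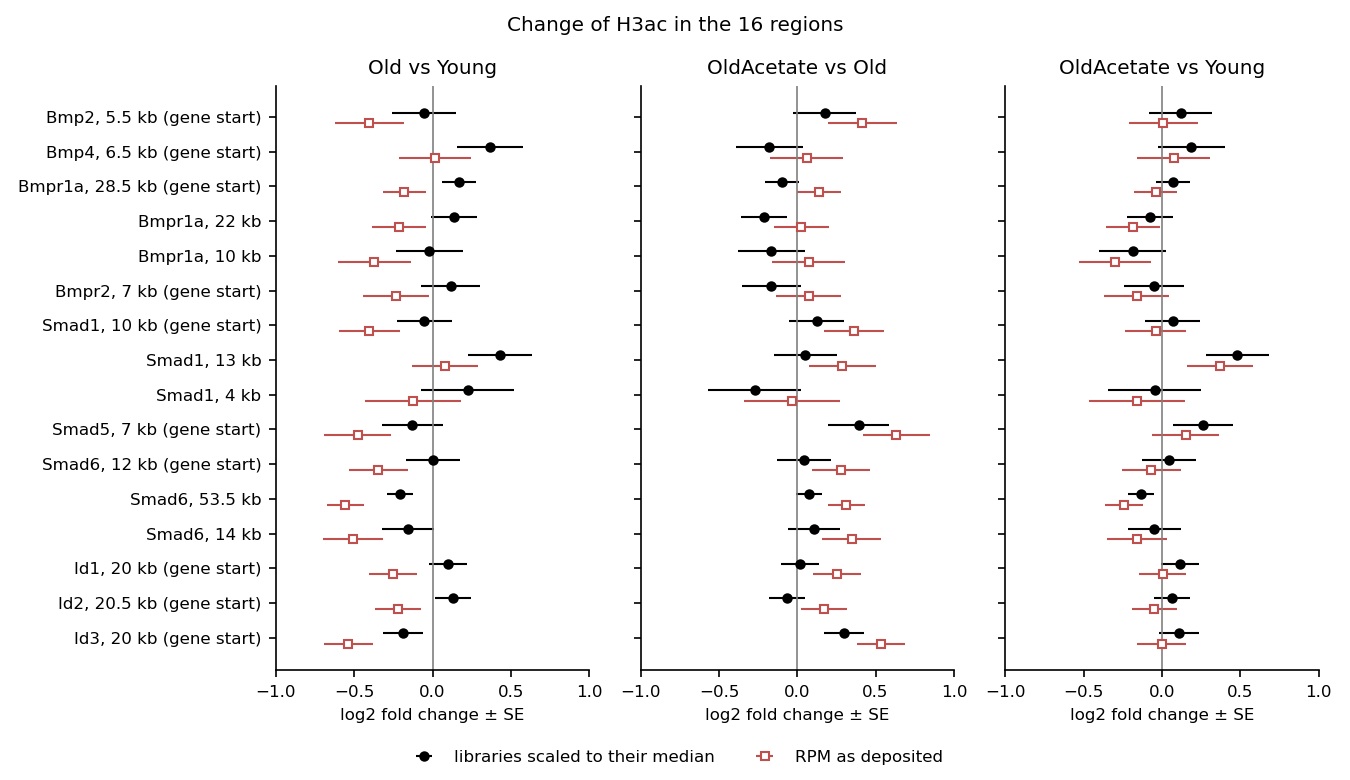
Log2 fold change (± SE, horizontal axis) of each of the 16 regions in the 3 comparisons, for libraries scaled to their median (black circles) and for RPM as deposited (open red squares), from fits over 2 libraries per group. As deposited, 14 of 16 values were below 0 in Old vs Young and 15 above 0 in OldAcetate vs Old, whereas scaled values lie on both sides of 0.

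As deposited, 2 of the 16 regions were called lower in Old than in Young (the 53.5 kb Smad6 region and Id3), where 9.5% of all regions were. None was called higher in OldAcetate than in Old in these values, where 0.311% of all regions were. At an unadjusted p under 0.05, 3 of the 16 were higher, as were 17.7% of all regions. When the regions of a gene were summed, 14155 protein-coding genes had a value. None of the 10 genes passed after scaling in any comparison, but neither did any other gene (0 of 14155 in each). In Old against Young, only Smad6 stood at an unadjusted limma p under 0.05, with a change of -0.16 ± 0.074 (unadjusted p = 0.032), as did 5.15% of all genes. In OldAcetate against Old, Bmpr1a and Id3 did, with Id3 at 0.26 ± 0.12 (unadjusted p = 0.042), as did 5.91% of all genes. In OldAcetate against Young no member did, where 5.09% of all genes did. edgeR called none of the 10 either, and 14, 0 and 0 of all 14155 genes in the 3 comparisons. In RPM as deposited, Smad6 and Id3 were called lower in Old than in Young (adjusted p = 0.0020 and 0.0064), as were 33.1% of all genes. Smad5 and Id3 were called higher in OldAcetate than in Old (adjusted p = 0.043 and 0.023), as were 7.52% of genes.

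Summed over the 16 regions, 253.5 kb in all, H3ac was 804 and 728 RPM (Young), 612 and 597 (Old) and 751 and 698 (OldAcetate). The group means were 766 ± 53.8, 605 ± 10.7 and 725 ± 37.6 (SD, n = 2). The 95% Wilson intervals ran from 773 to 837 and from 695 to 763 for Young, from 580 to 646 and from 568 to 628 for Old, and from 721 to 783 and from 666 to 732 for OldAcetate, and they cover counting error only. Old lay below both other groups by more than the replicates differed, though with 2 libraries against 2 an exact two-sided permutation test cannot go below p = 0.333. As a share of the reads in all regions, the same sums were 0.124% and 0.126% (Young), 0.123% and 0.13% (Old) and 0.131% and 0.124% (OldAcetate). On that scale every pair of groups overlapped. The mean shares were 0.125% ± 0.0014, 0.126% ± 0.0052 and 0.128% ± 0.0050 (SD, n = 2), and their order was not that of the RPM sums.

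**Figure D4:**
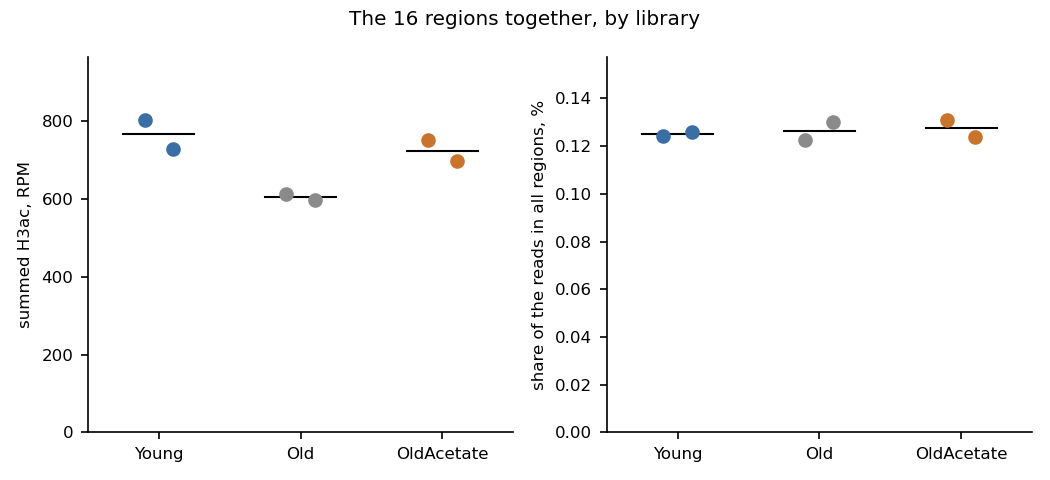
The 16 regions together, 1 point per library with a line at the mean of 2, as summed RPM (left panel) and as percent of the reads in all regions (right panel). Old is lowest in RPM, at 597 and 612, while the shares of region reads overlap between groups at 0.123% to 0.131%.

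The rest of the pathway was followed through a list of 49 other genes, which gave 65 regions. Regions were found at 5 of 11 ligand genes (Bmp1, Bmp6, Bmp8a, Gdf6 and Gdf7) and at none of Bmp3, Bmp5, Bmp7, Bmp8b, Gdf2 and Gdf5. Of the receptor and co-receptor genes, 7 of 8 had regions, all but Hjv, and all 8 mediators and inhibitors inside the cell had them. Antagonists were split, with a region at 11 of 16 and none at Chrdl2, Sost, Sostdc1, Cer1 and Vwc2. A promoter region was found at 4 of the 11 ligand genes and at 9 of the 16 antagonist genes. The ligand Gdf7 and the antagonists Chrdl1 and Dand5 had other regions only. Sost is a product of osteocytes, and Cer1 acts in the early embryo. All 6 further targets (Id4, Msx1, Msx2, Dlx5, Hey1 and Atoh8) had a promoter region.

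After scaling, 0 of these 65 regions were called in any comparison by limma or by edgeR with RLE factors. At an unadjusted limma p under 0.05 stood 7 in Old against Young, 6 in OldAcetate against Old and 5 in OldAcetate against Young, where 5.54%, 6.24% and 5.08% of all regions did. The median scaled changes were -0.020, 0.059 and 0.043. Map3k7, which encodes the kinase TAK1 of the Smad-independent branch, had 16.8 and 18.0 RPM (Young), 24.0 and 22.3 (Old) and 25.5 and 25.4 (OldAcetate). Its Old libraries both exceeded Young, which held for 1 of the 65 regions and for 316 of all 24431. The scaled change was 0.75 ± 0.20 (unadjusted p = 0.00033, adjusted p = 0.46). Gdf6, a ligand of joint formation, had 15.5 and 18.8 RPM (Young), 6.47 and 7.95 (Old) and 13.1 and 11.7 (OldAcetate), a scaled change of -0.84 ± 0.26 in Old against Young (unadjusted p = 0.0024, adjusted p = 0.74). These are values of few reads, 14 at the lowest.

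The type I receptor gene Acvrl1 had 16.8 and 16.3 RPM (Young), 10.6 and 8.35 (Old) and 18.5 and 18.8 (OldAcetate) at its start. Its scaled change of 0.71 ± 0.24 in OldAcetate against Old had the lowest p of the receptor regions in that comparison (unadjusted p = 0.0041, adjusted p = 0.66). Ski, a co-repressor that binds Smads, lay in a region of 116.5 kb with 421 and 387 RPM (Young), 283 and 299.9 (Old) and 405 and 378 (OldAcetate). The BMP target Atoh8 had 189 and 182 RPM (Young), 134 and 123 (Old) and 179 and 163 (OldAcetate). Old was lowest at all 3 genes, as it was in most of the table. The scaled changes in OldAcetate against Old were 0.18 ± 0.059 for Ski (unadjusted p = 0.0030) and 0.18 ± 0.081 for Atoh8 (unadjusted p = 0.033), with adjusted p of 0.66 and 0.78.

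The other regions of lowest p in their role differed by no more than their error allows to call. Rgmb, a co-receptor, had a scaled change of -0.19 ± 0.099 in Old against Young. In OldAcetate against Young, Bmpr1b (7 kb region) had -0.41 ± 0.25, Gdf7 -0.38 ± 0.30 and Hey1 0.34 ± 0.19. Dand5, an antagonist, had -0.45 ± 0.23 in OldAcetate against Old. A 1 kb region of Bmper, a secreted BMP modulator, had 3.95 and 3.68 RPM in Young against 0.46 and 0.80 in Old and 0.34 and 0.83 in OldAcetate, where single reads decide the value. As deposited, 13 of the 65 regions were called lower in Old than in Young, where 9.5% of all regions were, and they included those of Gdf6, Rgmb, Ski and Atoh8. Only Ski was called higher in OldAcetate than in Old, where 0.311% of all regions were.

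The region names carry codes of the letters AC, O and Y, for which no key is given in the sources used here. Of the 16 regions, 14 (87.5%) had the code AC+O+Y, as did 80.6% of all regions, and 2 (12.5%) had AC+Y, as did 12.1%. Those 2 were the 10 kb intronic region of Bmpr1a and the 14 kb region past Smad6. In base composition, the member promoter regions had a median of 48.7% G and C and 2.74 CpG per 100 bp, next to 48.1% and 2.29 over all promoter regions.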

How the data were processed

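The data were H3ac CUT&RUN profiles of 6 cultured MSC libraries, 2 per group. The authors deposited a table of RPM values for jointly listed regions, although it is named as RPKM. In every library 100% of values were whole multiples of the RPM of 1 read (tolerance 0.01), whatever the region length, so whole reads were recovered. Bowtie2, Picard and mm10 are named in the submitters' processing notes, without versions or roles. The peak caller, and any use of the yeast DNA added at the stop step for scaling, are not given in the sources used here.

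Log2(RPM + 0.5) was shifted by each library's median deviation and fitted with limma 3.58.1 (trend, robust) in R 4.3.3, with 3 group means over 6 libraries and no filter on low values. Benjamini-Hochberg adjustment ran over all 24431 regions or all 14155 genes, and a call is an adjusted p under 0.05. Fold changes are on the log2(RPM + 0.5) scale, which understates those of low regions. The design had allowed for RPM or RPKM. edgeR 4.0.16 (quasi-likelihood, on recovered reads, RLE factors or none), pseudocounts of 0.1 and 1, quantile normalization, unscaled values, a filter on the lowest 25% of regions, a replicate block and leaving out each library were alternatives. The scripts were tested on simulated data. The members and gene lists were chosen with earlier results of these data known. All members were named, and of the pathway list the region of lowest p per role and comparison. Replicate numbers came from the labels, and nothing there ties numbers across groups. Deviations of same-numbered libraries correlated at 0.0093, -0.034 and -0.043, so they were not treated as pairs. Results for some marker genes are not reported here.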

Additional observations from a re-analysis of the deposited data

How the results depend on the processing

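The counts of called members after scaling, 0 of 16 regions and 0 of 10 genes in each comparison, held under both other pseudocounts, quantile normalization, the filter on the lowest 25% of regions, the replicate block, edgeR with RLE factors, limma without trend and robust, fits of 2 groups only, 0 or 10 kb of extension, and without each library. They did not hold without scaling. In Old against Young, unscaled limma and edgeR without factors each called 2 regions and 2 genes of the members, and 13 and 12 regions of the other pathway genes. In OldAcetate against Old they called 2 and 1 member genes, and unscaled limma called 1 pathway region. Quantile normalization called 1 pathway region (Ski) in each of these comparisons. The member medians became -0.30 and -0.30 (limma and edgeR) in Old against Young, 0.27 and 0.25 in OldAcetate against Old, and -0.046 and -0.044 in OldAcetate against Young. As reads per 1000000 reads in regions, the summed level differed by 13.8, 11.8 and 25.6 in the 3 comparisons, where summed RPM differed by -161, 120 and -41.6. The replicate block (numbers that do not pair the libraries) also gave 0 called members and changed no call.

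Signs of single regions turned in 86 of 1191 recomputed values, none of them with an adjusted p under 0.05. The pair in brackets is unscaled limma and edgeR without factors. In Old against Young these were Bmpr1a 28.5 kb (-0.18, -0.19), Bmpr1a 22 kb (-0.21, -0.23), Bmpr2 (-0.23, -0.24), Smad6 12 kb (-0.35, -0.35), Id1 (-0.25, -0.25), Id2 (-0.22, -0.23), Smad1 4 kb (-0.12, -0.090), Dand5 (-0.12, -0.10) and, in edgeR alone, Bmp4 (-0.038). In OldAcetate against Old they were Bmp4 (0.059, 0.062), Bmpr1a 28.5 kb (0.14, 0.14), Bmpr1a 22 kb (0.026, 0.046), Bmpr2 (0.072, 0.076), Id2 (0.17, 0.18), Gdf7 (0.096, 0.098), Bmpr1b 7 kb (0.035, 0.029), Map3k7 (0.14, 0.14) and Hey1 (0.19, 0.22). In OldAcetate against Young they were Bmpr1a 28.5 kb (-0.041, -0.045), Smad1 10 kb (-0.042, -0.044), Smad6 12 kb (-0.068, -0.010), Id2 (-0.049, -0.052), Id3 (-0.0020, -0.0070), Ski (-0.045, -0.046) and, in edgeR alone, Bmp2 (-0.00047). Smad6 12 kb in Old against Young was -0.0017 with a pseudocount of 1, -0.011 with quantile normalization and -0.0021 with the filter, Smad1 13 kb in OldAcetate against Old was -0.014 in edgeR with RLE factors, and in OldAcetate against Young Ski was -0.054 with quantile normalization and Atoh8 0.0074 in edgeR with RLE factors.

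Without each library in turn, signs turned within these ranges. In Old against Young they were Bmp2 -0.19 to 0.077, Smad1 10 kb -0.24 to 0.14, Smad6 12 kb -0.092 to 0.099, Smad1 4 kb -0.13 to 0.58, Gdf7 -0.54 to 0.058 and Dand5 -0.028 to 0.50. In OldAcetate against Old they were Bmpr1a 28.5 kb -0.20 to 0.0050, Smad1 10 kb -0.067 to 0.31, Smad6 12 kb -0.26 to 0.35, Id1 -0.078 to 0.11, Id2 -0.17 to 0.036, Smad1 4 kb -0.63 to 0.085, Smad1 13 kb -0.34 to 0.44, Rgmb -0.0073 to 0.11, Bmper 1 kb -0.67 to 0.031 and Hey1 -0.24 to 0.14. In OldAcetate against Young they were Bmp4 -0.015 to 0.39, Bmpr1a 28.5 kb -0.0088 to 0.15, Bmpr1a 22 kb -0.21 to 0.064, Bmpr2 -0.14 to 0.035, Smad6 12 kb -0.26 to 0.35, Smad1 4 kb -0.30 to 0.21, Rgmb -0.28 to 0.010 and Atoh8 -0.060 to 0.054. A lone library left in a group is assumed to vary like the others. With 17 to 547 reads per member region and library, counting error at the lowest library ran from 6.18% to 24.3% of the value, and the SE of a scaled change from 0.084 to 0.30.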
